A study of Mus musculus with 72 samples.

Results

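The comparison described here set FSH21 against FSH24 at 10 ng/ml, the higher of 2 doses of follicle-stimulating hormone (FSH) given to mouse early secondary ovarian follicles for 24 h. It rests on 6 of the 18 libraries of the series, 3 for each form, chosen by treatment and dose and not by any measured value. Each library was run on 4 lanes, so that these 6 libraries account for 24 of the 72 deposited samples, and the lanes are technical. FSH21 is the hypoglycosylated form of the hormone, which lacks an N-glycan on its beta subunit, and FSH24 is the fully glycosylated form. The libraries of each form carry the numbers 2, 3 and 4, as do 3 libraries of untreated follicles, called controls below. The other 9 libraries hold 3 of each form at 1 ng/ml and 3 untreated, and carry the numbers 1, 5 and 6. All groups were kept in the same medium, which held serum albumin, fetuin and an insulin-transferrin-selenium supplement. The mouse strain and age, the origin of the hormones and any pooling of animals are not stated in the labels. The submitters speak of biological replicates but name no separate animals or cultures, so a p-value here covers only library-to-library spread, which may be partly technical.

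An early secondary follicle is an oocyte wrapped in a few layers of granulosa cells, with theca and stroma forming at its edge. FSH binds its receptor, Fshr, on granulosa cells, which couples to Gs, adenylyl cyclase, cAMP and protein kinase A, and through CREB and related factors to genes with cAMP response elements. The hormone's receptor activation and clearance are known to depend on its glycans. In granulosa cells FSH is known for inducing steroidogenic enzymes, inhibin and activin subunits, Kitl and genes of cholesterol supply. These statements are background and no result of these data.

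Libraries held 17.5 M to 22.5 M counts (M, mega), and the lowest of all was FSH21 number 2. Levels are CPM, counts per mega-count of the TMM-scaled library total. Differences are log2 values of FSH21 minus FSH24 from edgeR's quasi-likelihood fit with the library number as a block, so 0 means equal levels and 1 means 2-fold higher with FSH21. Granulosa markers were abundant (6 of 6 detected), summing to 5330 to 5734 CPM with FSH21 and 4975 to 5424 CPM with FSH24. Oocyte markers (8 of 8) summed to 3829 to 4320 and 3843 to 4108 CPM, and theca markers (4 of 4) to 204 to 274 and 205 to 284 CPM. Stroma and smooth muscle markers (8 of 8) summed to 2942 to 4136 CPM with FSH21 and 3149 to 4561 CPM with FSH24. Endothelial markers (5 of 5) lay at 66.3 to 85.8 and 71.1 to 82.8 CPM, surface epithelial markers (4 of 4) at 3.12 to 5.64 and 3.37 to 5.46 CPM, and immune markers (5 of 5) at no more than 2.01 and 1.78 CPM. Of the 4 red blood cell markers, Hbb-bs, Hba-a2 and Hbb-bt were at 0 in all 6 libraries. The ranges of the 2 forms overlapped for each of these marker sums. Within numbers the granulosa sum was higher with FSH21 in 3 of 3 (5330 against 4975, 5734 against 5424 and 5668 against 5139 CPM), although Fshr, 1 of its 6 markers, was lower in 3 of 3. The theca sum was lower with FSH21 in 3 of 3, by little in number 2 (204 against 205, 274 against 284 and 239 against 268 CPM). The part of these sums in the gene values below was not tested. In whole follicles, fewer cells of a type and less RNA per cell cannot be told apart.

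At 10 ng/ml whether single genes differed between the forms depended on the test. Of 18727 genes tested, 0 (0%) passed an adjusted p of 0.05 in edgeR's quasi-likelihood test, and the smallest adjusted p was 0.385. An unadjusted p under 0.05 was found for 716 genes (3.82%) by edgeR and for 2.64% by DESeq2. Both shares lay below the 0.05 that such a threshold passes where no gene differs. DESeq2 called 20 genes on the same libraries. In 10 of these 20, all 3 libraries of 1 form were at 0 counts. The other 10 had counts in all 6 libraries, 4 of them higher with FSH21 (Pex5l, Scara5, Kif5b and Tacc1) and 6 lower (Pik3r1, Mug2, Polr1a, Itgav, Map4k4 and Col11a1). Their adjusted p by DESeq2 ran from 0.000195 (Pik3r1) to 0.0466 (Tacc1), with Scara5 at 0.00313, Mug2 at 0.00922, Polr1a at 0.0123, Kif5b at 0.0149, Pex5l at 0.0150 and Itgav at 0.0155. When only the 6 libraries were fitted, edgeR called 1 gene, Wnt4, which is described below.

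Many genes were measured closely enough to bound the difference. The median absolute difference was 0.085 on the log2 scale over all genes tested, and 0.051 over the 10746 genes with a mean of at least 10 CPM in the 6 libraries. For 97.1% of those 10746 genes the 95% confidence interval of the difference lay within 1.5-fold in either direction, and for 99.1% within 2-fold. Over all genes tested these shares were 64.3% and 76.2%. Estimated differences of at least 2-fold were found for 527 genes tested, but for only 5 of the 10746 better measured ones, all 5 higher with FSH21. At 1 ng/ml the median absolute difference between the forms was 0.129 over all genes, and against the controls at 10 ng/ml it was 0.174 for FSH21 and 0.168 for FSH24. The plot of differences against their p-values shows the 16 genes with the smallest p that had the same sign in all 3 numbers, and 7 of these 16 were among the DESeq2 calls. They are described next by their values. The choice by small p and equal sign favours ranges of the forms that do not overlap, so non-overlap in these genes is no further result. Over all genes tested the ranges were apart for 1327 (7.09%).

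**Figure D1:**
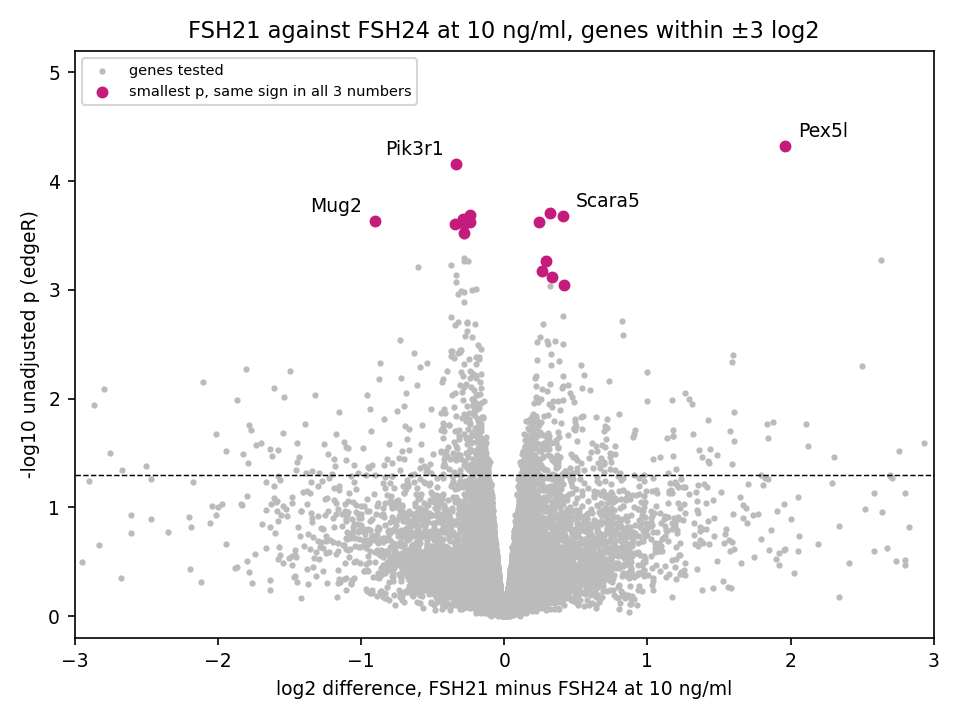
Each point is a gene, with the log2 difference FSH21 minus FSH24 at 10 ng/ml on the x axis and -log10 of the unadjusted edgeR p on the y axis, and the dashed line marks p = 0.05. Coloured points are the 16 genes with the smallest p and the same sign in all 3 numbers, led by Pex5l at 1.96 and Pik3r1 at -0.33; none passed after adjustment in edgeR, and 7 did in DESeq2.

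Among the 8 genes with higher values with FSH21, Pex5l stood out in size. Pex5l, which encodes a partner of HCN ion channels (chromosome 3, 32949408 to 33143247, minus strand), was at 3.68, 4.54 and 5.70 CPM with FSH21 in numbers 2, 3 and 4. It was at 1.24, 1.98 and 0.517 CPM with FSH24, and at 0.561, 0.458 and 0.497 CPM in the controls. The 2 forms did not overlap, and FSH24 number 4 lay at the level of the controls. The difference was 1.96 (SE 0.36, a 3.90-fold ratio with an interval of 2.29 to 6.64; unadjusted p = 4.72e-05, adjusted p = 0.385 by edgeR and 0.0150 by DESeq2). The counts behind it were small, 66 to 119 per FSH21 library and 11 to 40 per FSH24 library. The difference in Pex5l at 1 ng/ml was 0.62 (SE 0.42, adjusted p = 0.548 by edgeR).

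The other 7 genes of this direction differed by less. Scara5, a scavenger receptor that binds ferritin (chromosome 14, 65666403 to 65764826, plus strand), was at 246, 323 and 255 CPM with FSH21 against 188, 221 and 209 CPM with FSH24, and its controls at 83.4 to 93.7 CPM. The groups did not overlap, and the difference was 0.41 (SE 0.08, 1.17-fold to 1.51-fold; adjusted p = 0.385 by edgeR and 0.00313 by DESeq2). Epb41l1, a protein 4.1 family member that links the membrane to the cytoskeleton, was at 127, 162 and 167 CPM with FSH21 and 105, 140 and 120 CPM with FSH24, so that here the ranges overlapped and FSH21 was higher within each number. Epb41l1 was among the genes called at 1 ng/ml (0.37, SE 0.07, adjusted p = 0.0164 by edgeR), and at 10 ng/ml its difference was 0.32 (SE 0.07, adjusted p = 0.385). Kif5b, a kinesin heavy chain, was at 297, 312 and 318 CPM with FSH21 and 263, 268 and 251 CPM with FSH24 (0.25, SE 0.05). Its FSH21 libraries all lay above its FSH24 libraries, as they also did for Dipk2a (0.29), the RNA-binding protein Msi2 (0.27), Tacc1 (0.33), which binds microtubule-associated complexes, and Tpgs1 (0.42), a subunit of the tubulin polyglutamylase complex. Of these 8 genes, Tpgs1 had its FSH24 level closest to the controls (0.06, SE 0.11, adjusted p = 0.817 by edgeR), with FSH21 at 37.4, 38.7 and 37.2 CPM against controls of 28.3, 25.3 and 27.9 CPM.

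Among the 8 genes with lower values with FSH21, Pik3r1 was the most abundant. Pik3r1, the p85 alpha regulatory subunit of phosphoinositide 3-kinase (chromosome 13, 101680563 to 101768217, minus strand), was at 393, 346 and 355 CPM with FSH21 and 482, 407 and 492 CPM with FSH24, against 869, 908 and 919 CPM in the controls. The forms did not overlap with each other or with the controls. The difference was -0.33 (SE 0.06, a ratio of 0.793 with an interval of 0.722 to 0.871; unadjusted p = 6.87e-05, adjusted p = 0.385 by edgeR and 0.000195 by DESeq2). Against the controls Pik3r1 fell with both forms, by 1.30 with FSH21 and by 0.97 with FSH24 on the log2 scale (adjusted p = 1.08e-09 and 4.30e-08 by edgeR).

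Mug2, a murinoglobulin protease inhibitor (chromosome 6, 122006761 to 122085965, plus strand), was at 4.35, 3.49 and 2.35 CPM with FSH21. With FSH24 it was at 6.32, 6.29 and 6.11 CPM, and in the controls at 17.3, 27.9 and 17.4 CPM. The difference was -0.90 (SE 0.19, a ratio of 0.534 with an interval of 0.403 to 0.707; adjusted p = 0.385 by edgeR and 0.00922 by DESeq2), the largest of the 8. Polr1a, the largest subunit of RNA polymerase I, was at 228, 244 and 239 CPM with FSH21 and 277, 274 and 314 CPM with FSH24, again without overlap (-0.28, SE 0.06). Usp6nl, a GTPase-activating protein of the endosomal Rab5 (-0.24), the histone deacetylase Hdac5 (-0.29), the focal adhesion protein Parvb (-0.24), the pantetheinase Vnn1 (-0.28) and the adaptor Sh2d4a (-0.34) differed by similar amounts. Sh2d4a was the one whose FSH24 level was nearest to the controls (0.06, SE 0.07), and Vnn1 was called at 1 ng/ml as well (-0.26, SE 0.06, adjusted p = 0.0491 by edgeR).

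**Figure D2:**
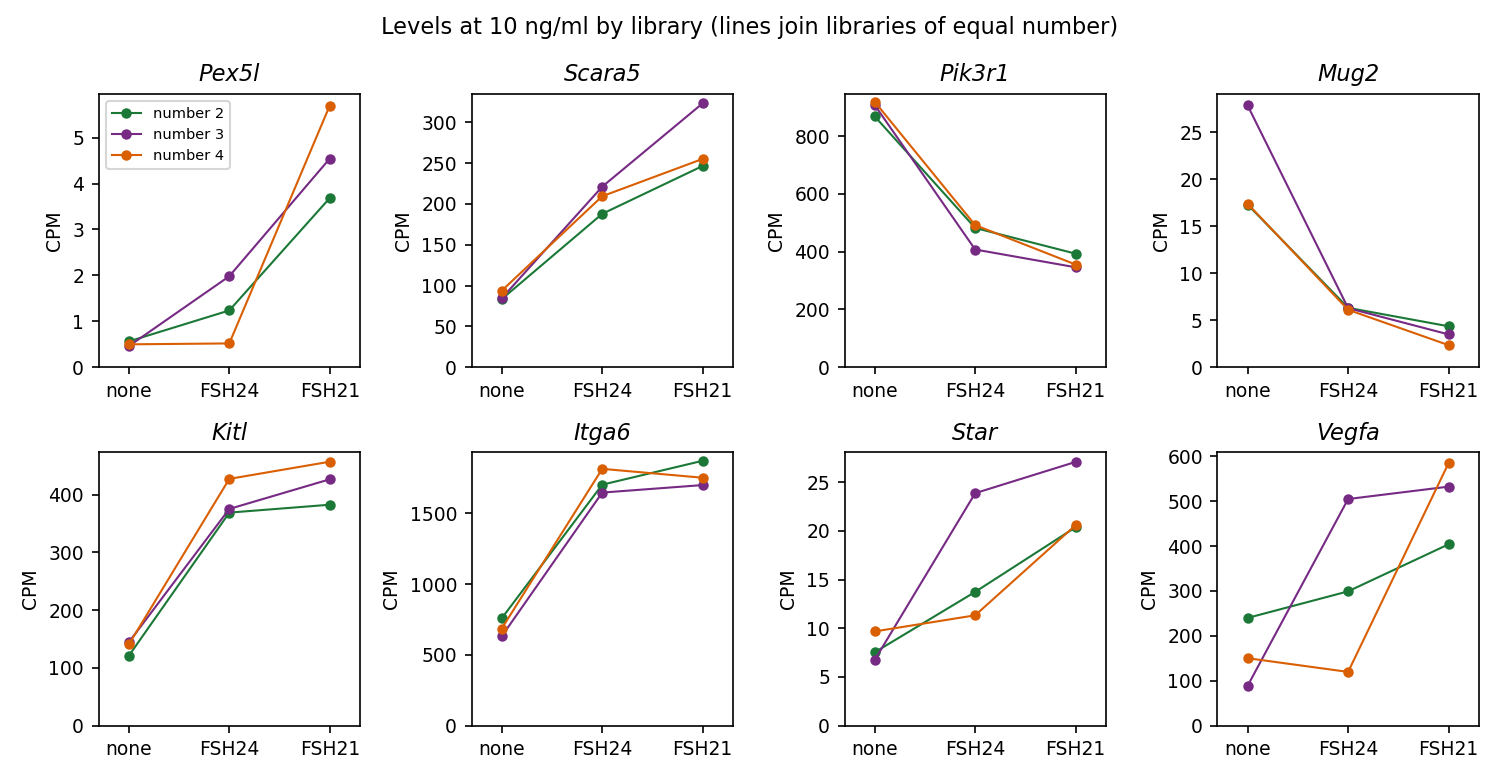
Level in CPM (y axis, from 0) of 8 genes in each of the 9 libraries numbered 2, 3 and 4, by treatment at 10 ng/ml; points are libraries and lines join equal numbers. FSH21 and FSH24 do not overlap for Pex5l, Scara5, Pik3r1 and Mug2, which were chosen by small p and equal sign. The forms lie close for Kitl and Itga6, and for Vegfa FSH24 number 4 stands far below the other treated libraries at 120 CPM.

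Promoter sequences from RefSeq (GRCm38.p6, 250 bases before to 50 after the start) were found for 17 of the 26 genes named by rule, with 25 promoters. The cAMP response element was searched on both strands as the full site TGACGTCA and as the half-site TGACG, which the full site contains on each strand, together with AGGTCA, the core bound by NR5A receptors. Of all 32851 promoters, 1.79% held the full site, 20.8% the half-site and 16.3% AGGTCA. The half-site lay in 7 promoters of 5 of the named genes (Msi2, Pik3r1, Hdac5, Gja1 and Gja4). AGGTCA lay in 2 promoters of 2 genes, Cyp19a1 (chr9:54268115-54268414) and Lhcgr, and the other Cyp19a1 promoters held none. Shown are Msi2, the gene whose 3 overlapping promoters held the full site, and the Pik3r1 promoter with a half-site. The other Pik3r1 promoter (chr13:101768168-101768467), not shown, held none of the 3 motifs. Also shown are Kitl and Mug2, 2 genes that moved strongly with FSH and held no match. Capitals mark the matches, and each sequence runs 5′ to 3′ on the gene's strand.
Msi2 (chr11:88718180-88718479, minus strand): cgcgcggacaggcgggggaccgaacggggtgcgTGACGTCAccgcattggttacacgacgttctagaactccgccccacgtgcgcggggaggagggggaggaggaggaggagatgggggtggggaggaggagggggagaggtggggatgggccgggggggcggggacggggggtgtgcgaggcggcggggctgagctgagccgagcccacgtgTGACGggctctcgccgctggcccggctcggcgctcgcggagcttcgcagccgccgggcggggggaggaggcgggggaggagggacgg
Pik3r1 (chr13:101692581-101692880, minus strand): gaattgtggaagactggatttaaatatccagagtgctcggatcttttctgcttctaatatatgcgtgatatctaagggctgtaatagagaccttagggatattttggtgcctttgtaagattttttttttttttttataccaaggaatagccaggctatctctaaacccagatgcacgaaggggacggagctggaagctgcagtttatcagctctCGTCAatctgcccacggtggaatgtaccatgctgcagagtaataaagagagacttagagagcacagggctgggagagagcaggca
Kitl (chr10:100015571-100015870, plus strand): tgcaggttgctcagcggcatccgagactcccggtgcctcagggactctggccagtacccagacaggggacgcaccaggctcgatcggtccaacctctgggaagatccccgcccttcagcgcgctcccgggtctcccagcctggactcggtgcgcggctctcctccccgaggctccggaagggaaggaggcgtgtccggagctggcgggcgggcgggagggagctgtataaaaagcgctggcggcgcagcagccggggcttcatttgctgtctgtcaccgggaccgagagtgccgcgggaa
Mug2 (chr6:122006548-122006847, plus strand): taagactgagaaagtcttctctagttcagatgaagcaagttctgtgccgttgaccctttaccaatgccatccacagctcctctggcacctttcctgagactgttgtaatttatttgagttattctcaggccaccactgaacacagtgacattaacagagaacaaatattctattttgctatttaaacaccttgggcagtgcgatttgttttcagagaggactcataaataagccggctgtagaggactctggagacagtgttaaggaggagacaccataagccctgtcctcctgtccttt
The Msi2 window holds 3 half-site matches, of which the full site accounts for a pair. A match is a description of these letters, and the windows without one were searched for these 3 motifs only.

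The receptor and the contact genes of the follicle were given values whatever they showed. Fshr, the receptor itself (chromosome 17, 88984952 to 89200675, minus strand), was at 12.3, 19.9 and 17.6 CPM with FSH21 and 17.4, 23.6 and 20.4 CPM with FSH24, lower with FSH21 in each of the 3 numbers although the ranges overlapped. The difference was -0.31 (SE 0.10, interval -0.53 to -0.09; unadjusted p = 0.00752, adjusted p = 1 by edgeR). Against controls of 21.4, 24.6 and 28.8 CPM, Fshr fell with FSH21 by 0.60 (adjusted p = 0.000428), whereas with FSH24 the value was -0.29 (adjusted p = 0.0660 by edgeR); the difference between these effects is the value above, which did not pass.

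Kitl, which granulosa cells make and the oocyte senses through KIT, was at 383, 427 and 457 CPM with FSH21 and 369, 375 and 427 CPM with FSH24, against 121, 144 and 141 CPM in the controls. The ranges of the forms overlapped, and both lay well above the controls. The difference was 0.11 (interval -0.01 to 0.23, adjusted p = 1 by edgeR), which bounds the ratio between 0.993-fold and 1.17-fold. The connexins that join granulosa cells and oocyte differed little. Gja1, the granulosa connexin, was at 1971 ± 107 CPM with FSH21 and 1949 ± 103 CPM with FSH24 (SD, n = 3), a difference of 0.02 (interval -0.12 to 0.16). Gja4, the oocyte connexin, was at 153 ± 16.7 and 149 ± 18.2 CPM (SD, n = 3; 0.04, interval -0.08 to 0.17). Gdf9, an oocyte growth factor, was at 1067 ± 78.4 and 1039 ± 72.9 CPM (SD, n = 3; 0.04, interval -0.07 to 0.15). All 9 gap junction genes tested gave 0 calls and a median difference of 0.01.

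The steroidogenic and inhibin genes varied widely between the libraries of a form. Star, which carries cholesterol into mitochondria, was at 20.4, 27.1 and 20.6 CPM with FSH21 and 13.7, 23.9 and 11.3 CPM with FSH24, with controls at 7.53, 6.74 and 9.68 CPM. FSH21 was higher in each number, FSH24 number 3 lay within the FSH21 range, and the difference was 0.50 (interval 0.10 to 0.90; unadjusted p = 0.0177, adjusted p = 1 by edgeR). Cyp19a1, the aromatase that makes estrogen, was at 17.9, 26.1 and 28.5 CPM with FSH21 and 17.9, 21.4 and 11.8 CPM with FSH24 (0.50, interval -0.23 to 1.23). Inhbb, the activin and inhibin beta B subunit, was at 445, 766 and 907 CPM with FSH21 and 367, 874 and 336 CPM with FSH24, so that number 3 ran against the other two (0.47, interval -0.50 to 1.44). Lhcgr, the luteinizing hormone receptor, had 2.96, 2.85 and 4.93 against 1.43, 4.61 and 2.68 CPM (0.33, interval -0.48 to 1.14), and the theca enzyme Cyp17a1 4.58, 3.35 and 6.70 against 4.23, 5.74 and 3.67 CPM (0.08, interval -0.49 to 0.65). For these last 4 genes the intervals include ratios of 1.5-fold and more in favour of FSH21, so differences of that size could not be resolved here.

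The forms were next read along the response to FSH itself. Against controls of the same numbers, FSH21 changed 2819 genes (15.1% of those tested), 1579 higher (8.43%) and 1240 lower (6.62%), and FSH24 changed 2547 (13.6%), 1502 higher (8.02%) and 1045 lower (5.58%), by edgeR. Both comparisons use the same controls. Without the block the counts were 1906 and 1577. The mean of both forms called 1955 genes higher and 1525 lower (10.4% and 8.14% of those tested). Since the same treated libraries enter the response and the difference between the forms, what follows is a description with no test.

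Among the 1955 genes higher with FSH, the median difference was 0.019 and 57.6% were higher with FSH21, beside -0.002 and 49.3% over all genes tested. Among the 1525 genes lower with FSH, the median was -0.029 and 37.4% were higher with FSH21. For the 248 genes at least 2-fold higher with FSH the median was 0.151 (numbers 2, 3 and 4 gave 0.110, 0.080 and 0.229), and 187 of them (75.4%) were higher with FSH21. For the 136 genes at least 2-fold lower with FSH it was -0.123 (numbers: -0.096, -0.195 and -0.149), and 45 of them (33.1%) were higher with FSH21. FSH21 thus lay slightly further from the controls than FSH24 for the strongest responders, by a size that was small beside their median responses of 1.34 and -1.42. Without FSH24 number 3 these medians became -0.010 for genes higher with FSH, 0.0077 for genes lower and -0.0086 for genes at least 2-fold lower, whereas genes at least 2-fold higher kept a median of 0.135.

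**Figure D3:**
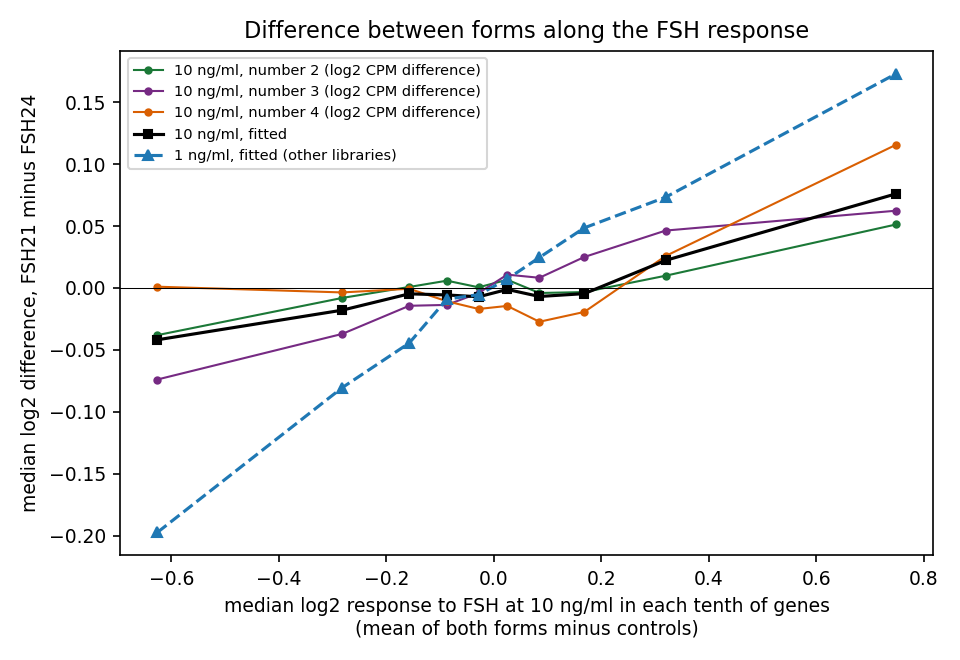
Median log2 difference FSH21 minus FSH24 (y axis) in 10 groups of about equal size of the genes tested, ordered by their log2 response to FSH at 10 ng/ml (x axis), for each library number, for the fit at 10 ng/ml and for the fit at 1 ng/ml. At 10 ng/ml the medians run from -0.042 in the lowest group to 0.076 in the highest, and at 1 ng/ml from -0.197 to 0.173.

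The same genes, chosen at 10 ng/ml, were then read in the 6 treated libraries at 1 ng/ml, whose levels did not enter the response that chose them, although all 18 libraries shared the filter and the estimate of spread. There the median difference was 0.127 for the 1955 genes higher with FSH (83.4% higher with FSH21) and -0.134 for the 1525 genes lower with FSH (16.9%). For the genes at least 2-fold higher it was 0.440, and for those at least 2-fold lower -0.382. At the lower dose, 177 genes were called between the forms (0.945% of those tested, 110 higher and 67 lower with FSH21) by edgeR with the block, but only 2 without it. Whether the difference between the forms itself changed with dose was tested as an interaction, which called 0 genes (0%) by edgeR, with 1917 genes (10.2%) at an unadjusted p under 0.05 and a smallest adjusted p of 0.127. DESeq2 called 172 genes in that test. Dose and number set coincide, so the doses are also different sets of libraries.

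Itga6, Kitl and Gstm6 had small p in the dose test and are described here because of their values. For these genes the forms lay close at the higher dose and apart at the lower one. Other genes need not share this pattern. Tpgs1 and Sh2d4a, named above by small p at the higher dose, showed the reverse. Tpgs1 differed by 0.42 at the higher dose and by -0.08 at the lower one, and Sh2d4a by -0.34 and -0.004. Their unadjusted p in the dose test was larger (0.00375 and 0.00471 by edgeR). Itga6, a laminin-binding integrin subunit, was at 1871, 1699 and 1751 CPM with FSH21 and 1702, 1646 and 1814 CPM with FSH24 at 10 ng/ml (0.04, SE 0.07). At 1 ng/ml it was at 1338, 1098 and 982 CPM with FSH21 and 800, 720 and 696 CPM with FSH24 (0.62, SE 0.07, adjusted p = 0.000422 by edgeR), and in the low-dose controls at 734, 749 and 608 CPM. At 1 ng/ml the FSH24 libraries overlapped with the controls and not with FSH21, and at 10 ng/ml the ranges of the forms overlapped. The change of the difference was -0.57 (SE 0.09, unadjusted p = 1.13e-05, adjusted p = 0.127). Kitl gave a difference of 0.56 at 1 ng/ml (SE 0.06, adjusted p = 0.000422) and a change with dose of -0.45 (SE 0.08, adjusted p = 0.127 by edgeR). Gstm6, a glutathione transferase with near-identical copies whose reads may be split, gave 0.85 at 1 ng/ml and 0.12 at 10 ng/ml (adjusted p of the change 0.127 by edgeR).

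Gene lists gave 0 edgeR calls at 10 ng/ml in each of the 28 lists with a gene tested, beside 0% of all genes, and are described by their counts and medians. DESeq2 called 1 list member, Itgav, which is described below. The list of FSH-induced granulosa genes had a median of 0.127, with 13 of 20 higher with FSH21. Numbers 2, 3 and 4 gave 0.114, 0.012 and 0.219. FSH21 was higher in all 3 numbers for 8 of these genes and lower in all 3 for 4, beside 13.1% and 12.9% of all genes. The list's median log2 response against the controls was 0.207 with FSH21 and 0.261 with FSH24, so it was not larger with FSH21. Against the controls 8 of its genes rose and 2 fell with FSH21, and 5 rose and 4 fell with FSH24, beside 8.43% and 6.62% of all genes for FSH21 and 8.02% and 5.58% for FSH24. Its highest members were Vegfa (0.83), Star and Cyp19a1, and its lowest Runx2 (-0.26). The list of the receptor and cAMP to protein kinase A signalling had a median of -0.03 over 23 genes, from Fshr (-0.31) to Crem (0.19). The 23 cAMP early-response genes had a median of 0.089, with numbers 2, 3 and 4 at 0.316, 0.058 and -0.035. In that list Pde4b, a cAMP phosphodiesterase, was at 5.02, 5.19 and 5.36 CPM with FSH21 and 3.37, 3.52 and 1.98 CPM with FSH24, without overlap (0.83, SE 0.24, adjusted p = 0.998 by edgeR), and Ereg, an EGF-like ligand, had the lowest value (-0.62).

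Cholesterol synthesis and uptake rose with both forms. Of its 25 genes, 22 rose and 0 fell with FSH21, and 23 rose and 0 fell with FSH24, beside rises in 8.43% and 8.02% of all genes tested. Between the forms the median was 0.107, with 23 of 25 higher with FSH21 and numbers 2, 3 and 4 at 0.143, 0.098 and 0.118. For 15 of the 25 genes FSH21 was higher in all 3 numbers and for 0 lower in all 3, beside 13.1% and 12.9% of all genes. Sc5d, a late enzyme of the pathway, was at 48.7, 56.9 and 54.8 CPM with FSH21 and 39.9, 52.9 and 46.4 CPM with FSH24, against 34.0 to 36.6 CPM in the controls. FSH21 was higher in each number, although the ranges overlapped, and the difference was the largest of the list (0.21, SE 0.08, adjusted p = 1 by edgeR), while Ebp had the lowest (-0.07). The median moved between 0.049 (without FSH24 number 2) and 0.162 (without FSH24 number 3) when single treated libraries were left out.

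Glycolysis and hypoxia genes had the highest list medians, and these came largely from 1 library. All 18 glycolysis genes tested were higher with FSH21 (median 0.478), as were all 13 hypoxia genes (median 0.645). The number pairs were unequal, with 0.106, 0.211 and 1.14 for glycolysis and 0.203, 0.077 and 1.76 for hypoxia in numbers 2, 3 and 4. Summed over the hypoxia list, FSH21 libraries held 1301, 1668 and 1721 CPM, FSH24 libraries 1125, 1547 and 609 CPM, and the controls 1045, 615 and 806 CPM. FSH24 number 4 thus lay below all 3 controls, and the other 2 FSH24 libraries lay above them. Without FSH24 number 4 the medians were 0.201 and 0.172. Vegfa, an angiogenic growth factor counted in 2 of the lists, was at 404, 532 and 585 CPM with FSH21 and 299, 505 and 120 CPM with FSH24 (0.83, SE 0.64), and Slc2a1, a glucose transporter, at 93.9, 105 and 99.2 against 72.9, 86.5 and 43.8 CPM (0.59, interval -0.05 to 1.22). At 1 ng/ml the list medians had the other sign, -0.180 and -0.303, and the same sums ranged from 393 to 1320 CPM over the FSH21 libraries of that dose.

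**Figure D4:**
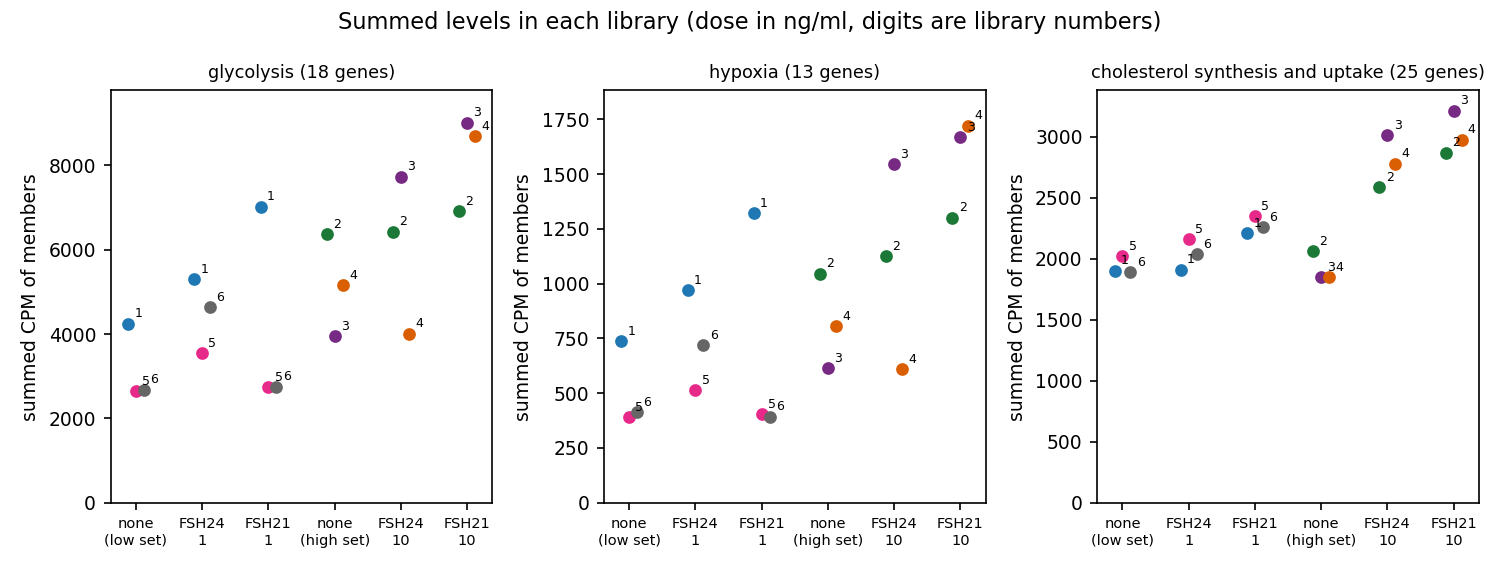
Summed CPM (y axis, from 0) of the glycolysis, hypoxia and cholesterol lists in each of the 18 libraries by treatment and dose in ng/ml; each point is 1 library, labelled with its number. The hypoxia sum of FSH24 number 4 (609 CPM) lies below its controls, whereas the cholesterol sums of all 6 libraries at 10 ng/ml lie above all controls.

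The list of the integrated stress and amino acid response was higher with FSH21 in all 16 of its genes (median 0.121; numbers 0.146, 0.047 and 0.142), 9 of them in all 3 numbers. Ddit4, a stress-induced inhibitor of mTORC1, was at 118, 146 and 141 CPM with FSH21 and 106, 123 and 86.0 CPM with FSH24 (0.36, SE 0.15, adjusted p = 1 by edgeR). Chac1, which degrades glutathione, had the highest value of the list (0.43) and Nars, an aminoacyl-tRNA synthetase, the lowest (0.01). The median of this list was -0.098 at 1 ng/ml.

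The stromal, matrix and focal adhesion lists had medians below 0, and number 4 gave the lowest value in each. Numbers 2, 3 and 4 gave -0.064, -0.060 and -0.179 for stroma and smooth muscle, -0.102, -0.023 and -0.298 for Hippo-YAP targets, -0.012, -0.012 and -0.186 for integrins and focal adhesion, and 0.001, -0.051 and -0.166 for the matrix. The 12 stroma and smooth muscle genes had a median of -0.100, with 2 of 12 higher, and the 12 Hippo-YAP targets a median of -0.123, with 2 of 12 higher. The summed stroma and smooth muscle markers were highest in FSH24 number 4, at 4561 CPM against 3149 and 3927 CPM in the other FSH24 libraries and 2942, 4136 and 3611 CPM with FSH21, so the forms overlapped; the part of stroma in the Hippo-YAP values was not tested. The 19 integrin and focal adhesion genes had a median of -0.07, from -0.28 in Itgav to 0.49 in Itga2. Itgav, the alpha V integrin subunit, was at 211, 252 and 222 CPM with FSH21 and 243, 302 and 288 CPM with FSH24 (-0.28, SE 0.06, adjusted p = 0.426 by edgeR and 0.0155 by DESeq2), and against its controls it fell with both forms. Fn1, fibronectin, was the lowest of the 22 matrix genes (median -0.050, 6 of 22 higher) at 397, 423 and 329 against 446, 444 and 529 CPM (-0.31, SE 0.13, adjusted p = 1 by edgeR). The 25 cell-cell adhesion genes had a median of -0.001, in which Clstn3, a calsyntenin, was highest at 10.6, 10.6 and 14.9 against 7.89, 8.22 and 8.27 CPM (0.55, SE 0.18, adjusted p = 1). The 15 genes of transzonal projections, the granulosa processes that reach the oocyte, had a median of -0.02. There Myo7a, an unconventional myosin, was at 21.9, 20.98 and 23.4 CPM with FSH21 and 17.8, 14.5 and 18.9 CPM with FSH24 (0.38, SE 0.12, adjusted p = 1), against controls of 3.89 to 4.02 CPM.

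**Figure D5:**
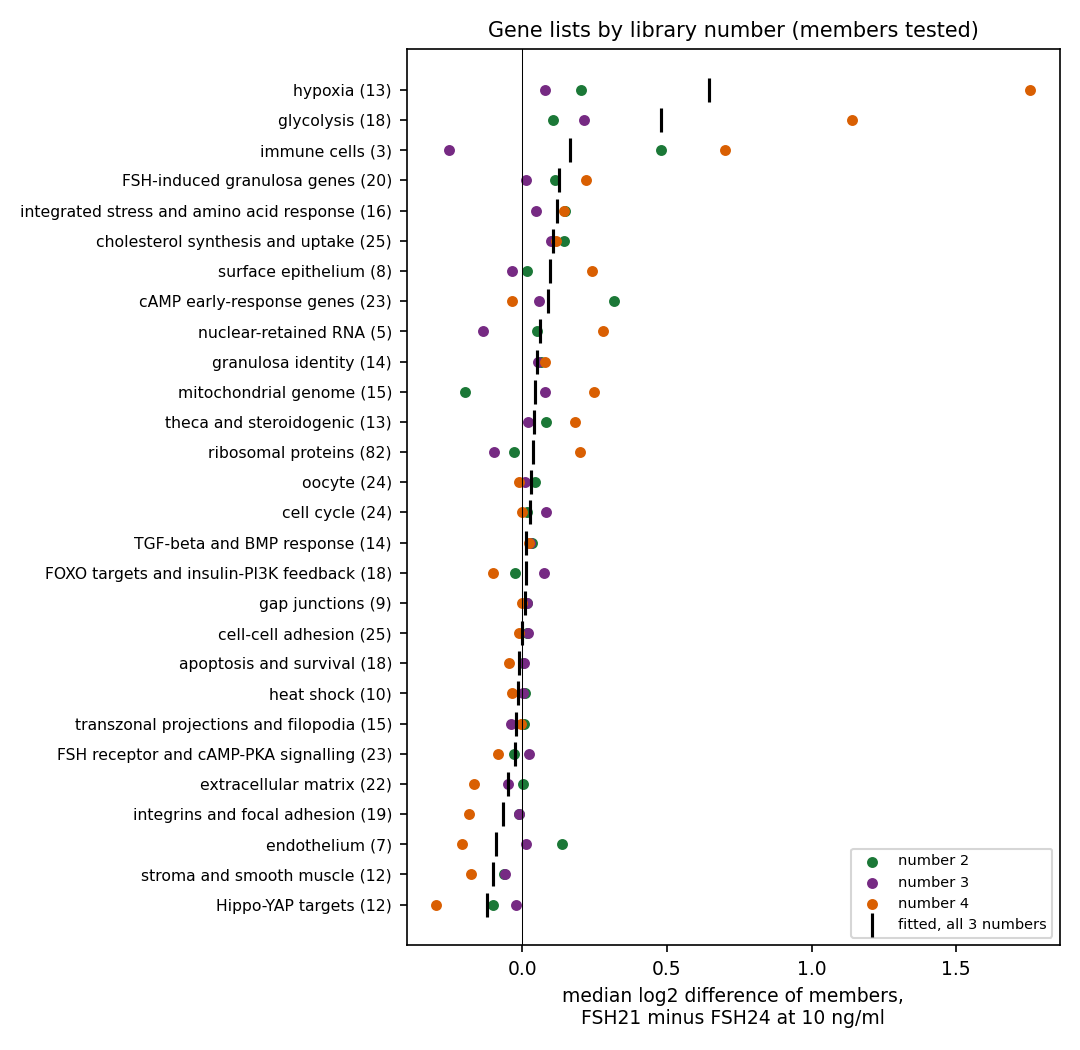
Median log2 difference FSH21 minus FSH24 at 10 ng/ml (x axis) of the members of each gene list (y axis, members tested in brackets), for each library number (points) and for the fit (bars). The fit runs from -0.123 (Hippo-YAP targets) to 0.645 (hypoxia), and number 4 alone reaches 1.76 and 1.14 for hypoxia and glycolysis.

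The 24 oocyte genes had a median of 0.031, from -0.08 to 0.11, with 20 of 24 higher with FSH21 and 0 at an unadjusted p under 0.05. Their medians in numbers 2, 3 and 4 were 0.042, 0.010 and -0.013. Only 2 of the 24 were higher with FSH21 in all 3 numbers and 1 was lower in all 3, beside 13.1% and 12.9% of all genes. The 24 cell cycle genes had a median of 0.026, and against the controls 13 rose and 1 fell with FSH21, and 14 rose and 3 fell with FSH24, beside rises in 8.43% and 8.02% of all genes. Of the 82 ribosomal protein genes, 67 fell with FSH21 and 70 with FSH24, beside 6.62% and 5.58% of all genes. Between the forms their median was 0.036, with numbers 2, 3 and 4 at -0.030, -0.098 and 0.200, and it became -0.043 without FSH24 number 4 and -0.017 without FSH21 number 4. Of the 13 theca and steroidogenic genes, 10 were higher with FSH21 (median 0.041), but only 2 were higher in all 3 numbers and 1 was lower in all 3. Of the 14 granulosa identity genes 10 were higher with FSH21 (median 0.050), 7 were higher in all 3 numbers and 2 lower in all 3, Fshr having the lowest difference.

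Wnt4, a secreted signal of the granulosa lineage, was named after its values were seen, because edgeR called it when only the 6 libraries were fitted. It was at 230, 261 and 243 CPM with FSH21, 149, 196 and 161 CPM with FSH24 and 87.3, 68.7 and 101 CPM in the controls (chromosome 4, 137277489 to 137299726, plus strand). The 3 groups did not overlap, and the ranges of the forms were apart for 1327 genes in all (7.09%), 663 higher (3.54%) and 664 lower (3.55%) with FSH21. In the fit on 18 libraries the difference was 0.54 (SE 0.15, adjusted p = 1), and on 6 libraries 0.54 (adjusted p = 0.0149 by edgeR). The fit on 6 libraries left 2 residual degrees of freedom, against 8 in the fit on 18. Wnt4 was not among the 20 genes that DESeq2 called on the 18 libraries. Against the controls Wnt4 rose with both forms, by 1.51 with FSH21 and 0.98 with FSH24 (adjusted p = 9.83e-05 and 0.00198 by edgeR). Pappa, a protease that cleaves insulin-like growth factor binding proteins, was also picked on its values: 4.63, 8.77 and 7.33 CPM with FSH21 against 3.37, 4.75 and 3.43 CPM with FSH24 (0.83, SE 0.23, adjusted p = 0.854 by edgeR), with controls at 1.49 to 2.06 CPM.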

How the data were processed

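Polyadenylated RNA of mouse ovarian follicles was sequenced. The authors deposited expected counts per gene, 1 column per library with lanes merged; that RSEM made them was read from the file headers. Per the submitters' processing notes, bcl2fastq, FastQC, STAR 2.7 and mm10 were used; annotation and strand use are not given in the sources used here, so reads of overlapping antisense genes cannot be told apart. Control number 4 was matched to its column by number and index, the treatment code being spelled differently.

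Expected counts were rounded (33.9% of non-zero values were not whole). Of 56691 identifiers, 52073 were found in GENCODE M21 (GRCm38), which gave positions. Genes passing filterByExpr by group (minimum count 10; 18727) were fitted on all 18 libraries with edgeR 4.0.16 (R 4.3.3), TMM scaling, robust quasi-likelihood, 6 groups and the library number as block, with 8 residual degrees of freedom. The common biological coefficient of variation was 0.0928. P-values were adjusted by Benjamini-Hochberg over all genes; calls were at 0.05. Scripts were tested on simulated counts with the same spread for all genes and no effect of library number. That checked the code, and not the power or error rate in these data. DESeq2 1.42.0, no block, fewer libraries, RLE scaling, other filters, no robust estimation and leaving out each library numbered 2, 3 or 4 were the alternatives.

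Deviations of same-numbered libraries from their group means correlated at 0.0496 to 0.235 (18 pairs, 12 over 0.1), and at 0.0719 to 0.235 between the forms at 10 ng/ml. Named genes had a mean of at least 1 CPM, the same sign in all 3 numbers and the smallest p, 8 per direction, beside 10 fixed genes. Members, lists and rules were chosen with earlier results of these data known.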

Additional observations from a re-analysis of the deposited data

How the results depend on the processing

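At 10 ng/ml, edgeR called 0 genes between the forms with the block, 0 with no replicate block, 1 on the 6 libraries alone (Wnt4), and 0 on the 9 libraries numbered 2, 3 and 4, with RLE scaling, with a minimum count of 50 or without robust estimation. DESeq2 called 20, and edgeR without a filter on low counts called 253 of 36282 genes; in that unfiltered fit the prior degrees of freedom were infinite, so that all genes shared 1 trend of spread. Leaving out single libraries gave 0 to 2 calls, the 1 being Gm9913 without FSH21 number 3 and the 2 being Wnt4 and Gm9913 without control number 3. Gm9913 was at 0 in all 3 FSH24 libraries and 1 FSH21 library.

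At 1 ng/ml the 177 calls became 2 with no replicate block, 508 with DESeq2, 990 without a filter, 270 with a minimum count of 50, 107 without robust estimation, and 106 to 348 without single libraries (lowest without control number 4, highest without control number 3). The dose test gave 172 calls with DESeq2, 611 without a filter and 0 to 7 without single libraries (7 without FSH24 number 3). Against the controls, calls fell with no replicate block from 2819 to 1906 for FSH21 and from 2547 to 1577 for FSH24; without single libraries, calls ranged from 1748 to 2853 for FSH21 and from 1412 to 2386 for FSH24. The libraries were paired by their shared numbers, and same-numbered pairs deviated together only weakly, with correlations of 0.0496 to 0.235.

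Without single libraries the medians along the response ranged from -0.0101 to 0.0420 for genes higher with FSH, -0.0453 to 0.00773 for genes lower, 0.119 to 0.220 for genes at least 2-fold higher and -0.182 to -0.00856 for genes at least 2-fold lower, which moved to -0.0708 without a filter. The cause of these changes was not tested. On the 6 libraries alone no response could be fitted, as they hold no controls. With the block and a minimum count of 10, edgeR on all 18 libraries called no gene between the forms at 10 ng/ml. That fit thus held no called direction that another setting could turn. Gja1, Lhcgr, Cyp17a1 and Itga6 changed sign when 1 of several libraries was left out. The median of the ribosomal protein list also changed sign, and it ranged from -0.043 to 0.141. Intervals were wider for genes at low levels: those within 1.5-fold were reached by 97.1% of genes at 10 CPM or more and by 64.3% of all.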
